A study of Mus musculus with 2 samples.

Results

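The Wnt pathway genes were followed in PDGFRα+ cells of mouse inguinal white fat (ingWAT). They had been sorted from its stromal vascular fraction (SVF), the non-adipocyte cells that remain when the pad is digested with collagenase. The genes comprised the Wnt, Frizzled (Fzd), Sfrp, Dkk and R-spondin (Rspo) families, recognised by gene symbol, together with Lgr4, Lgr5, Lgr6, Lrp5, Lrp6, Wif1, Frzb, Axin2, Lef1 and Tcf7l2. These 50 genes, called members here, were taken from 19938 genes with a value, and 51 probe sets measured them because Wnt4 had 2. The donors were female mice, 6 weeks old, either Sox9 floxed or Sox9 PreASKO, and both groups received doxycycline (dox) at postnatal day 1. The sources used here do not spell out the name PreASKO or give the promoter that drives a deletion of Sox9. Each group was 1 array, described in the series' design as 3 mice pooled, so no value has an error, a replicate check or a p-value. A level is the deposited log2 value, and a difference is PreASKO minus floxed on that scale, where 0.585 equals 1.5-fold.

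Wnt proteins are secreted, lipid-modified ligands that bind Frizzled receptors and the co-receptors LRP5 and LRP6. Binding blocks the complex that destroys β-catenin, which then enters the nucleus and acts with TCF and LEF factors on genes such as Axin2. R-spondins bind LGR receptors and keep Frizzled and LRP at the cell surface, while SFRP and WIF1 proteins trap Wnts and DKK proteins act at LRP. In adipose precursors β-catenin signalling is known for holding back adipocyte differentiation, and Wnt10b is the ligand best known for this.

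Upstream sequences are shown for 5 members because the pathway ends in TCF/LEF factors and the floxed gene encodes a SOX factor. Rspo1, Lgr4 and Fzd7 were lower in PreASKO, and Tcf7l2 was higher, as was Wnt4 on the brighter of its 2 probe sets only. Tcf7l2 is shown at the first of its 2 listed starts. Each run is the 250 bases before the RefSeq start in build GRCm38.p6, 5′ to 3′. Capitals mark matches, on either strand, to the TCF/LEF core (CTTTGA or CTTTGT, the latter read as ACAAAG on the other strand), or to the SOX core (ACAAT, read as ATTGT on the other strand).
Rspo1, chr4:124986180-124986429, plus strand: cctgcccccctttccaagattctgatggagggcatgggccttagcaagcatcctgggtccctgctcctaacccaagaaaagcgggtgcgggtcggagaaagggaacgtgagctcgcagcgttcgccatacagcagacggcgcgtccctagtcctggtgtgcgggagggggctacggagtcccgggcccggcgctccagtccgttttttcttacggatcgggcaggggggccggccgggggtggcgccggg
Lgr4, chr2:109917397-109917646, plus strand: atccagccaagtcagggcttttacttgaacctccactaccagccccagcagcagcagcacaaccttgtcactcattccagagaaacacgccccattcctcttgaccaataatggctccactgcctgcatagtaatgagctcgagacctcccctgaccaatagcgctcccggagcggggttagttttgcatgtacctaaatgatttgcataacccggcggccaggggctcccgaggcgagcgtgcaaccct
Wnt4, chr4:137277385-137277634, plus strand: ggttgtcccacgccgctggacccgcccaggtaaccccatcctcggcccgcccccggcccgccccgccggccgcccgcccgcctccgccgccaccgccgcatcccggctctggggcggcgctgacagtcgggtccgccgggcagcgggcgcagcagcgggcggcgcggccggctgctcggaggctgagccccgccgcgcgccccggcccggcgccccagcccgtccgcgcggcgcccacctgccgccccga
Fzd7, chr1:59481897-59482146, plus strand: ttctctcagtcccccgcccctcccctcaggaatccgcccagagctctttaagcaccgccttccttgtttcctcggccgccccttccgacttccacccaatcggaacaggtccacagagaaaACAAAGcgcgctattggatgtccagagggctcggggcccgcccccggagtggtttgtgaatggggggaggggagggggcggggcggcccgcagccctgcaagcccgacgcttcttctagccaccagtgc
Tcf7l2, chr19:55741560-55741809, plus strand: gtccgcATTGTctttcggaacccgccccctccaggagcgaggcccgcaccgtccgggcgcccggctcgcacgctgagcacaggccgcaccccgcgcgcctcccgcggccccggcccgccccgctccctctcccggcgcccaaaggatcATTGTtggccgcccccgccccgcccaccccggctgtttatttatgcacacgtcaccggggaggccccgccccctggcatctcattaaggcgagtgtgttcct

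In these runs Fzd7 held 1 match to CTTTGT, which was searched as a TCF/LEF core, and Tcf7l2 held 2 ACAAT matches. Rspo1, Lgr4 and Wnt4 held no match. SOX-type sites without ACAAT were not searched, so a run with no ACAAT may still hold one, the Fzd7 match included. The window at the other listed start of Tcf7l2 held 1 CTTTGT match and no SOX core match. The supplied promoter table, with windows of 300 bases that run 50 bases past the start, had 40 windows for 33 of the 50 members. The 5 members shown were not set by a limit on the difference, as Fzd7 differed by -0.29 and Tcf7l2 by 0.19. Wnt2b (-0.50), Fzd5 (-0.34) and Wnt9a (0.41) differed by more than these but are not shown, and their windows held no match. CTTTGA lay in 15% of the members' windows and in 16% of all 32851 windows, and CTTTGT in 20.0% and 18.7%. ACAAT lay in 15% of the members' windows against 31.0% of all windows, and the longer SOX9-type form ACAATGG, which contains ACAAT, lay in 0 of 40 against 3.66%. The members' windows were also richer in G and C, with a median of 67.3% against 52.7%. A match or its absence here is a description of letters and not of binding.

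The identity of the samples was checked first. Sox9 was at 5.25 in floxed and 4.97 in PreASKO, a difference of -0.27, so the targeted gene did not separate the arrays by 1.5-fold. Whether its probes lie in the deleted part was not examined here. Pdgfra, the sorting marker, was at 9.86 and 9.55. A background mark of 4.64 was set from 1027 olfactory receptor genes, assumed not to be expressed here. Of these, 95% lay below 4.64 in floxed and below 4.47 in PreASKO, and the higher level was used for both arrays. The olfactory receptor genes themselves leaned lower in PreASKO, with 595 lower, 346 higher and 86 equal and a median difference of -0.08. All 15 measured fibroblast and adipose precursor markers reached the mark in both arrays, but so did all 18 macrophage markers. The fibroblast and precursor markers were lower in PreASKO in 11 of 15 and higher in 4. Their median difference was -0.05, with a range from -0.38 to 0.20. The macrophage markers were higher in PreASKO in 16 of 18, with median levels of 8.79 and 9.25 and a median difference of 0.44. Markers of proliferating cells were lower in 13 of 13, with a median difference of -1.14, Mki67 at 6.90 and 5.60 and Top2a at 6.95 and 5.81. Median differences were -0.20 for 13 mural, -0.04 for 12 endothelial, 0.05 for 14 epithelial, 0.12 for 11 lymphocyte and 0.02 for 8 Schwann and neural markers. Below the mark in both arrays were 3 mural, 4 endothelial, 7 lymphocyte and 2 Schwann and neural markers. Single markers ranged from -0.62 to 0.63 for mural, -0.69 to 0.33 for endothelial and -0.53 to 0.88 for lymphocyte genes. Of the epithelial markers 3 of 14 reached the mark, Krt8 (5.93 and 6.31), Krt19 (5.78 and 6.08) and Cldn4 (5.47 and 5.28), and the other 11, Epcam, Elf5 and Trp63 among them, were below it in both arrays. The part of these other cells in any Wnt gene's difference was not tested, and in such bulk RNA fewer cells of a type and less RNA per cell cannot be told apart.

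Of the 50 members, 31 reached the background mark in at least 1 array and 19 lay below it in both. Those 31 were 62.0% of the members, against 59.2% of all genes. Over all members 27 were lower in PreASKO, 21 were higher and 2 were equal, with a median difference of -0.05 against 0 over all genes. Of all 19938 genes 9566 were lower, 9614 higher and 758 equal, and among those that reached the mark 45.4% were lower. With every value below the mark raised to it, 18 of the 50 were lower, 12 higher and 20 equal. The lower share was then 36% of the members and 26.8% of all genes, and the higher share 24% and 31.4%.

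The series names a limit of 1.5-fold. No member was 1.5-fold lower and 3 of 50 (6.00%) were 1.5-fold higher, where 3.64% of all genes passed the limit, 1.66% higher and 1.98% lower. Of the 1027 olfactory receptor genes 7.01% passed it, 12 of them higher and 60 lower. The 3 members were Sfrp5, Rspo4 and Fzd8, each dim. Sfrp5, a secreted Frizzled-related protein, was at 3.17 in floxed and 3.87 in PreASKO, both below the mark. Fzd8, a Wnt receptor, was at 3.78 and 4.40, also both below it. Rspo4, an R-spondin best known from nail development, was at 4.24 in floxed and 4.90 in PreASKO. Only the second value reached the mark, and with the floxed value raised to the mark Rspo4 was 1.20-fold higher. With values below the mark raised to it, 0 of 50 members were 1.5-fold higher and 0 were 1.5-fold lower, where 0.808% and 0.517% of all genes were. Nearest to the limit in size were Fzd8 (0.62), just past it, and Rspo1 (-0.53), just short of it.

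A smaller limit, a difference of 0.322 on the log2 scale, was also applied. With values below the mark raised to it, 7 of 50 members were lower by at least that much (14%), where 3.68% of all genes were. On the other side 2 were higher by at least that much (4%), where 5.32% of all genes were. The 7 lower members were Rspo1, Lgr4, Wnt2b, Sfrp1, Sfrp4, Fzd5 and Dkk3, which are agonists, receptors, a ligand and secreted modulators alike. The 2 higher members were Wnt9a and Wnt4. After a loess correction or with averaged probe sets Wnt4 no longer passed this limit, and after quantile normalization Dkk3 did not. On the values as deposited 10 of 50 were lower and 5 higher by this limit, where 9.86% and 9.46% of all genes were. Genes are not replicates, so these shares describe this pair of arrays.

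**Figure D1:**
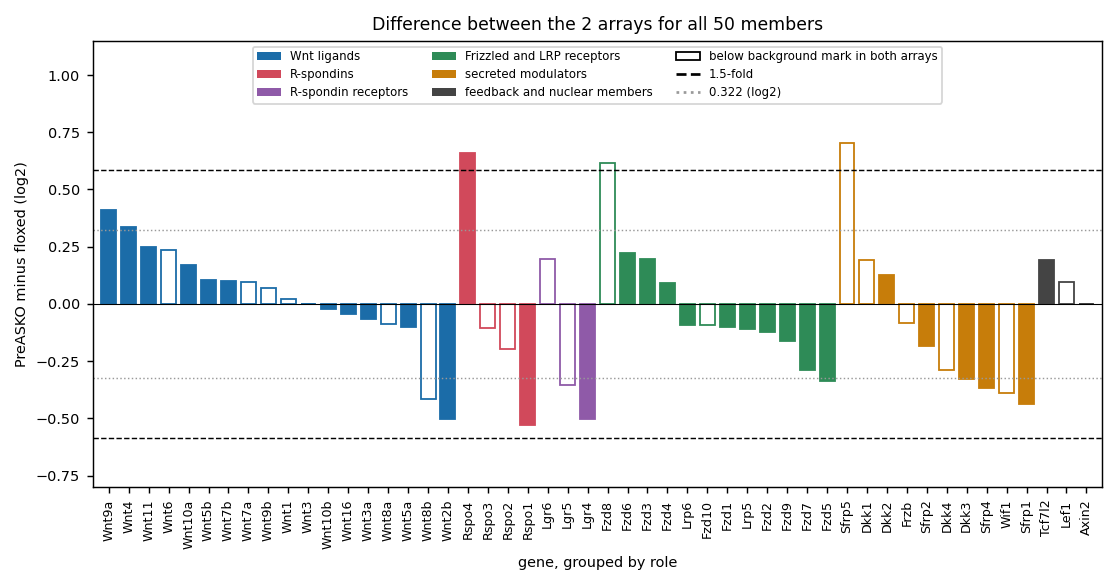
Difference PreASKO minus floxed (y axis, log2) for the 50 members (x axis), coloured by role, with open bars for the 19 below the background mark in both arrays and lines at 1.5-fold and at the smaller limit of 0.322. The 3 bars past 1.5-fold all point up, and 2 of them, Fzd8 and Sfrp5, are open.

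Wnt ligands differed in both directions. Of 18 ligand genes 10 were higher, 7 lower and 1 equal, with a median difference of 0.05, and 11 reached the mark, each of them in both arrays. Wnt9a, a ligand known from joint formation, was at 4.72 in floxed and 5.13 in PreASKO, a difference of 0.41 and the most positive among the ligands. Its floxed level lay close to the mark. Wnt4, a ligand of kidney, gonad and mammary development, was at 5.64 and 5.98 on probe set 10509273, a difference of 0.34. Its other probe set, 10509267, was at 4.18 and 3.84, a difference of -0.34, with both values below the mark. The mean of both Wnt4 probe sets did not differ (0.00), so the direction given for Wnt4 rests on the brighter probe set.

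Wnt2b, a ligand that can act through β-catenin, was the most negative ligand at 5.17 and 4.66, a difference of -0.50. Its PreASKO level lay barely above the mark. Wnt5a, the main ligand of the β-catenin-independent branch, was at 6.18 and 6.08, and its close relative Wnt5b was at 4.76 and 4.86. The pair differed by -0.10 and 0.10. Wnt10b, the ligand known for restraining adipogenesis, was at 5.43 and 5.41, a difference of -0.02. Wnt10a, a related ligand of skin and tooth development, was at 5.06 and 5.23, a difference of 0.17. Wnt11, a ligand mainly of the β-catenin-independent branch, was at 4.96 and 5.21, a difference of 0.25. The other 3 ligands above the mark were nearly level. Wnt3a, the ligand most used to activate β-catenin in culture, was at 4.85 and 4.78, Wnt16 at 4.96 and 4.91, and Wnt7b at 4.67 and 4.77.

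The remaining 7 ligand genes, Wnt1, Wnt3, Wnt6, Wnt7a, Wnt8a, Wnt8b and Wnt9b, lay between 3.07 and 3.86 in both arrays, below the mark. Their differences ran from -0.41 for Wnt8b to 0.24 for Wnt6, a range with no measured order at these levels. Wnt3 had exactly the same value, 3.74, in both arrays.

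**Figure D2:**
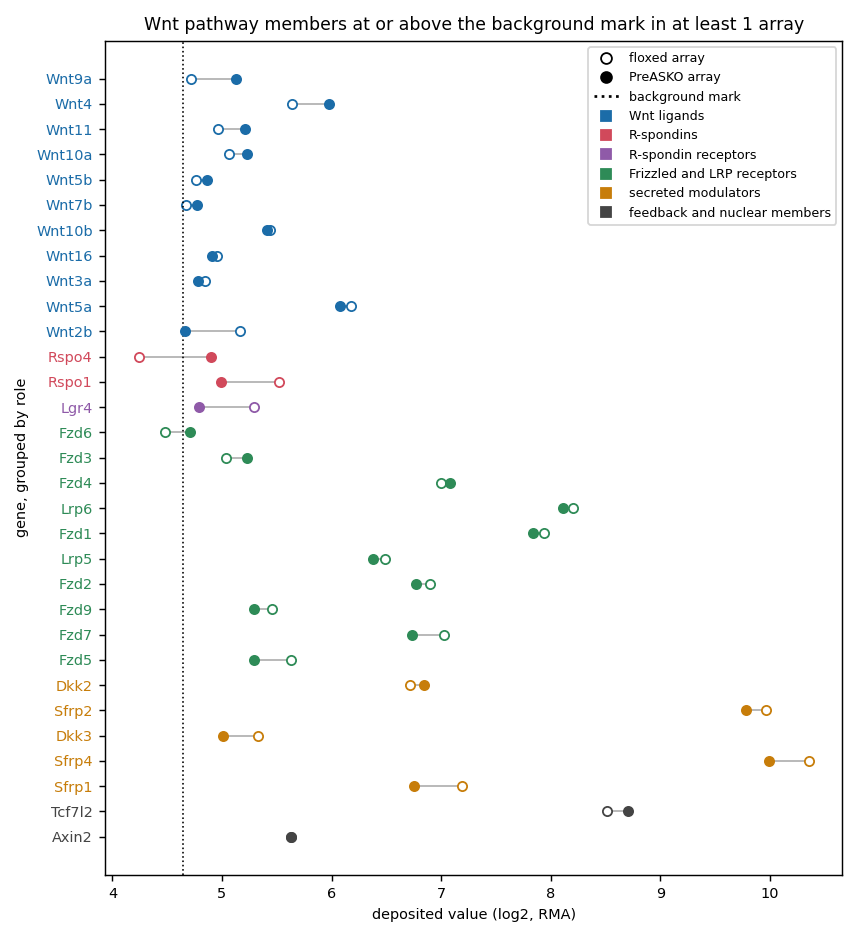
Deposited log2 values (x axis) of the 31 members that reached the background mark in at least 1 array (rows, coloured by role), with an open point for the floxed array, a filled point for the PreASKO array and a dotted line at the mark. Sfrp1, Sfrp4, Rspo1, Lgr4 and Wnt2b have the filled point clearly to the left, Wnt9a and Wnt4 to the right, and Rspo4 and Fzd6 cross the mark.

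R-spondins and their receptors held 2 of the 3 most negative differences of all members, Rspo1 and Lgr4, but also the second most positive, Rspo4. Rspo1, a secreted agonist that strengthens Wnt signals, was at 5.52 in floxed and 4.99 in PreASKO on probe set 10508012, a difference of -0.53 or 1.44-fold lower. Lgr4, the R-spondin receptor with the broadest tissue range, was at 5.29 and 4.79 on probe set 10474419, a difference of -0.50 or 1.42-fold lower. Ligand and receptor were thus lower by similar amounts, and all 4 values were above the mark, with Lgr4 in PreASKO close to it. Lgr5, the stem cell marker among these receptors, was at 4.64 and 4.29 and stayed just below the mark in floxed. Lgr6, the third receptor, was at 4.33 and 4.52, below the mark in both. Rspo2 (3.77 and 3.57) and Rspo3 (4.14 and 4.03) were also below it in both arrays. Rspo4 pointed the other way, with a difference of 0.66, and reached the mark in PreASKO alone. Znrf3, a membrane ligase that R-spondins neutralise, was at 4.76 and 5.14, a difference of 0.39. Its relative Rnf43 was below the mark at 3.50 and 3.74.

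Frizzled and LRP receptors were mostly a little lower in PreASKO. Of 12 genes 8 were lower and 4 higher, with a median of -0.10. The mark was reached by 10 in at least 1 array, 9 of them in both, and 7 of the 10 were lower and 3 higher. Among all genes that reached the mark in at least 1 array 45.4% were lower. Fzd5 was at 5.63 in floxed and 5.29 in PreASKO, a difference of -0.34. Fzd7, a receptor often found on progenitor cells, was at 7.02 and 6.73, a difference of -0.29. These were the most negative in the family, and Fzd5 was the only one lower by at least 0.322. Its relative Fzd8 pointed the other way, but below the mark.

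The rest of the receptor family differed less. Fzd1, at 7.94 and 7.84, and Fzd2, at 6.90 and 6.77, belong with Fzd7 to one subfamily, and all 3 were lower. Fzd9 was at 5.46 and 5.29, a difference of -0.16. The co-receptors Lrp5, at 6.48 and 6.38, and Lrp6, at 8.20 and 8.11, differed by -0.11 and -0.09, so both were lower by nearly the same amount. Fzd4, which also serves as the receptor of norrin, was at 6.99 and 7.08, a difference of 0.09. Fzd3, a receptor of planar polarity and axon guidance, was at 5.04 and 5.23, a difference of 0.20. Its close relative Fzd6 was at 4.48 and 4.71. Only the PreASKO value reached the mark, and with the floxed value raised to the mark Fzd6 was 1.04-fold higher. Fzd10 lay below the mark at 4.53 and 4.44.

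Secreted modulators had the most negative median among the roles with over 4 genes, -0.24 over 10 genes, 7 of which were lower. Among all 19938 genes 9566 were lower. Of the 5 modulators that reached the mark 4 were lower, where 45.4% of all genes that reached it were. The other 5 lay below it in both arrays, and with values raised to the mark the median was 0. Sfrp1, which binds Wnts through a Frizzled-like domain, was at 7.19 and 6.75, a difference of -0.44 or 1.35-fold lower. Sfrp4 was at 10.35 and 9.99, a difference of -0.37 or 1.29-fold lower. Sfrp2, of the same subgroup as Sfrp1, was at 9.97 and 9.78, a difference of -0.18 or 1.14-fold lower. All 3 genes with an Sfrp symbol that lay above the mark were therefore lower, and the remaining one with such a symbol, Sfrp5, was below it.

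Dickkopf genes were split. Dkk3, the most divergent of them, was at 5.33 and 5.005, a difference of -0.33. Dkk2, which can raise or lower Wnt signals depending on context, was at 6.71 and 6.84, a difference of 0.13. Dkk1, the classical LRP inhibitor, was below the mark at 3.86 and 4.05, as was Dkk4 at 4.07 and 3.78. The Wnt-binding inhibitors Wif1 (3.97 and 3.59) and Frzb (3.53 and 3.45) were below the mark too.

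The members that read out or carry the nuclear signal showed no lower value. Axin2, a β-catenin target and feedback inhibitor, had exactly the same value in both arrays, 5.63. Exact equality occurred in 758 of all genes (3.80%) and in 1.65% of the genes that reached the mark, so an exact 0 was not rare in the deposited table. Tcf7l2, the β-catenin partner that is best known from diabetes genetics, was at 8.51 and 8.70, a difference of 0.19. Lef1, another such partner, was below the mark at 4.40 and 4.49.

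**Figure D3:**
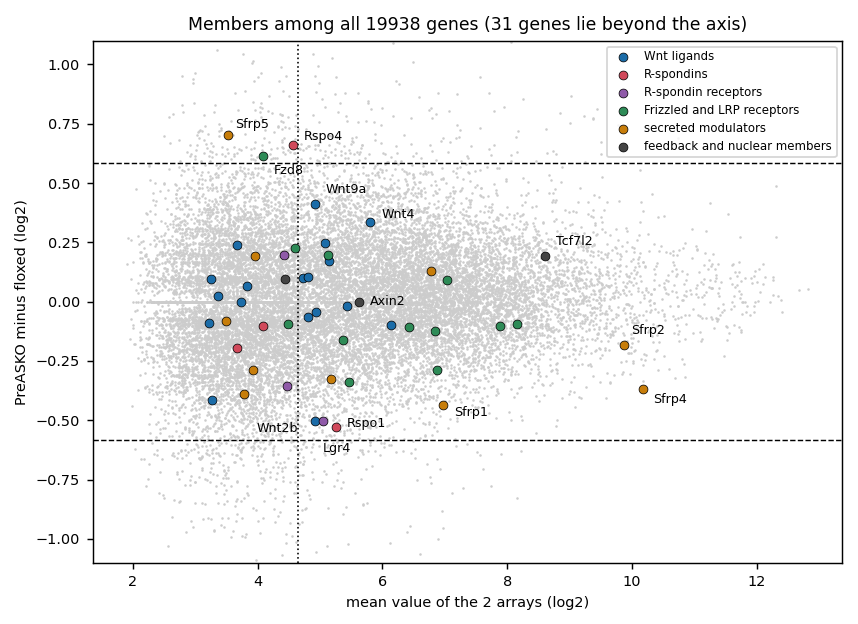
Difference PreASKO minus floxed (y axis, log2) against the mean level of both arrays (x axis, log2) for 19938 genes in grey and the 50 members in colour by role, with dashed lines at 1.5-fold and a dotted line at the background mark (31 genes lie beyond the axis). Sfrp5, Fzd8 and Rspo4 lie above the upper line with mean levels left of the mark, and Rspo1, Lgr4 and Wnt2b lie just inside the lower line.

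Other genes of the pathway were taken from 6 lists holding 103 genes, of which 101 had a value. None of the 101 differed by 1.5-fold in either direction, against 3.64% of all genes. The levels were not alike, as 85.1% of the 101 reached the mark in at least 1 array, against 59.2% of all genes. With values below the mark raised to it, 0.808% of all genes were 1.5-fold higher and 0.517% lower, and again none of the 101. Of the 101, 54 were lower, 44 higher and 3 equal, with a median of -0.01. Genes of ligand secretion had a median of -0.04 over 7. Wls, the carrier that brings Wnts to the surface, was at 7.87 and 7.71, and Porcn, which attaches their lipid, was at 5.46 and 5.42. Gpc4, a glypican that binds Wnts, was at 7.01 and 6.56, a difference of -0.45, and its relative Gpc3 was at 10.14 and 10.05. In the other direction Trabd2b, a protease that cleaves Wnts, was at 7.94 and 8.29, a difference of 0.35.

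Other receptors and surface regulators had a median of 0 over 19 genes. Tspan12, which works with Fzd4 in norrin signalling, was at 6.54 and 6.10, a difference of -0.44. Cthrc1, a secreted protein that favours the β-catenin-independent branch, was at 7.93 and 7.69, and Ror1, a kinase-like receptor of the same branch, at 6.42 and 6.19. These 2 differed by -0.25 and -0.23. Besides Znrf3, Sost, an LRP inhibitor best known from bone, was higher at 4.76 and 5.11, a difference of 0.35, and Sostdc1, a relative of Sost, was at 4.51 and 4.67.

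The destruction complex and cytoplasmic transducers had a median of -0.11 over 27 genes, of which 18 were lower. Ctnnb1, which encodes β-catenin, was at 8.54 and 8.40, a difference of -0.14. Dact1, an antagonist that binds Dishevelled, was at 7.33 and 6.84, a difference of -0.49, the most negative of the 101. Nkd2, another Dishevelled antagonist, was at 4.91 and 4.47, with the second value below the mark, and Amer1, a scaffold of the destruction complex, at 6.37 and 6.05. The most positive values in this list were smaller: Dact3 differed by 0.18, the kinase gene Csnk1a1 by 0.13 and Dvl1 by 0.11. Nuclear β-catenin partners had a median of 0.06 over 15 genes. Ctnnbip1, which blocks the binding of β-catenin to TCF, was at 5.15 and 5.57, a difference of 0.41, and Tcf7l1, a mostly repressive TCF, was at 7.64 and 7.95, a difference of 0.32. Tle3, a corepressor, differed by 0.26. The lower ones were Hdac1 (-0.27), the β-catenin adaptor Bcl9 (-0.24) and Chd8 (-0.18).

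Genes known as β-catenin targets had a median of 0.00 over 22, with 10 higher, 11 lower and 1 equal. Among targets that reached the mark Dact1 was again the most negative, followed by Ccn4 at 5.24 and 4.86, a difference of -0.37, and Ccn5 at 6.62 and 6.39, a difference of -0.22; both encode secreted CCN proteins. Besides Znrf3, the most positive of these were the cyclin gene Ccnd1 at 6.67 and 6.98, a difference of 0.31, and Bambi, a pseudoreceptor of the TGF-β family, at 5.84 and 6.03. Apcdd1, a feedback inhibitor at the membrane, was at 7.24 in both arrays. Targets thus lay on both sides of 0 while Axin2 was at 0.

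**Figure D4:**
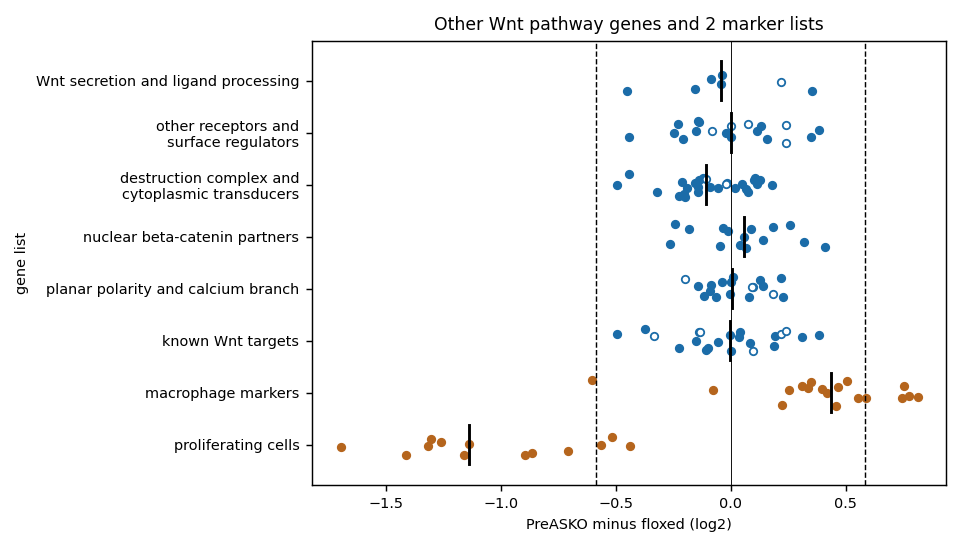
Difference PreASKO minus floxed (x axis, log2) for each gene of the 6 other pathway lists (blue) and of the macrophage and proliferation marker lists (brown), with open points for genes below the background mark in both arrays, a black bar at each list's median and dashed lines at 1.5-fold. The pathway medians lie between -0.11 and 0.06, while the marker lists sit at 0.44 and -1.14.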

How the data were processed

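Per the submitters' processing notes the authors summarised the arrays with RMA, which corrects background, aligns the arrays' distributions and summarises probes per probe set. The deposited values are read as log2 from their range (1.23 to 13.8), and the log base, RMA version and any filter are not given in the sources used here. RMA can shrink true differences of dim genes. Even so, 7.01% of the olfactory receptor genes, most of them below the mark, passed 1.5-fold in these arrays. The array medians were 4.73 and 4.71.

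Of 35556 probe sets, 21789 named exactly 1 gene in the supplied platform annotation, and for a gene with several the one of highest mean was used. With 1 array per group no test was possible. Values below the background mark were raised to it for the folds and counts that say so, and without an error such a fold is no lower bound. Members, lists and limits were chosen with earlier results of these data known. In full are named all members that reached the mark or passed 1.5-fold, and of other pathway genes up to 3 per list and direction above the mark, with Porcn, Rnf43 and Apcdd1 chosen after their values were seen. RefSeq gave upstream sequences, and all 50 members matched it by gene ID. 1 gene of the families was not analysed here. The calls at 1.5-fold and the centring, loess and quantile steps were tested on simulated data. The background mark, the raising of values to it and the smaller limit were not. Python 3.11.15, pandas 2.3.3, numpy 2.4.6 and statsmodels 0.14.6 were used.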

Additional observations from a re-analysis of the deposited data

How the results depend on the processing

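The alternatives were averaging a gene's probe sets, centring, a loess correction (span 0.3), quantile normalization, raising values to the background mark, keeping genes that reached it, other fold limits and counting every probe set. The count of 3 members 1.5-fold higher became 0 at 2-fold, 5 at a limit of 0.322 (log2), 1 among members that reached the mark and 0 with values raised to it. The count of 0 lower became 10 at 0.322. With values raised to the mark the medians of R-spondins (-0.15), their receptors (-0.36) and secreted modulators (-0.24) became 0.0, with 2 of 4, 2 of 3 and 5 of 10 of their genes below it in both arrays. Among genes that reached it, the R-spondin median was 0.065 (2 genes) and the receptor value -0.50 (Lgr4 alone). No other median moved by 0.1. Loess and quantile normalization moved members by at most 0.043 and 0.053, and under them, with values raised to the mark, 7 and 6 members were lower by 0.322 and 1 and 2 higher (loess lost Wnt4, quantile normalization Dkk3). With the mean over probe sets 7 were lower and 1 higher, and Wnt4 was the only member to change sign. The 13 members that moved by over 0.1 with values raised each had a level below the mark, among them Rspo4 (0.26) and Fzd6 (0.06). No replicate could be left out. No paired analysis was possible because there is 1 array on each side. All 50 members have 1 array a group and no error, and 19 of them also lie below the background mark in both arrays.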

Other observations

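Several Wnt genes lie next to each other in the RefSeq gene order, with no protein-coding gene listed between them, and the values of such neighbours are given here as a description. Wnt6 and Wnt10a on chromosome 1 differed by 0.24 and 0.17, but Wnt6 was below the background mark. Wnt3a and Wnt9a on chromosome 11 differed by -0.07 and 0.41, and this was the one pair with both genes above the mark. Wnt9b and Wnt3 on the same chromosome (0.07 and 0.00) and Wnt10b and Wnt1 on chromosome 15 (-0.02 and 0.02) were nearly level, with Wnt9b, Wnt3 and Wnt1 below the mark.

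Genes of the planar polarity and calcium branch, which carries Wnt signals without β-catenin, had a median difference of 0.01 over 18 genes, 8 of them lower, 9 higher and 1 equal. Daam2, a formin that links Dishevelled to actin, was at 5.13 and 4.99, and Prickle2, a polarity protein, at 5.13 and 5.01. Daam1, the relative of Daam2, was at 7.72 and 7.63. In the other direction the calcium-responsive factor Nfatc1 was at 5.64 and 5.87, Prickle1 at 4.89 and 5.11 and Vangl2, a core polarity protein, at 4.59 and 4.73. None of the 18 differed by more than 0.23.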
